A study of Rattus norvegicus with 18 samples.

Results

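Glutathione transferases and glutamate-cysteine ligase, the enzyme of the first step of glutathione synthesis, were measured in the kidneys of 2 rat strains. The family was taken as 10 genes, Gsta3, Gsta4, Gstm1, Gstm2, Gstp1, Gstt1, Gstt2, Mgst1, Gclc and Gclm. All 10, of 10969 genes named on the arrays, were measured, with 22 probe sets of 26202, each probe set being a group of short probes for a transcript. A probe set was included when the platform annotation gave it a single gene symbol and that symbol was one of the 10. One strain was Dahl salt-sensitive (S), named Dahl S from here on, an inbred model of hypertension that responds to dietary salt. The other was a congenic strain made on the S background, in which a piece of chromosome 9 comes from salt-resistant (R) rats. The series title says that the congenic rat contains a quantitative trait locus for blood pressure, meaning a genome region to which the trait was mapped. Total RNA from kidney was hybridised from 3 samples of each strain, and each sample was run on 3 array types, A, B and C, for 18 arrays. The labels used here name no age, sex, diet or treatment for either strain. The study compared renal transcript levels between the strains.

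Glutathione is the main small thiol antioxidant of cells. Its synthesis starts with glutamate-cysteine ligase, the rate-limiting enzyme, built from the catalytic subunit Gclc and the modifier subunit Gclm. Glutathione transferases join glutathione to electrophiles such as lipid peroxidation products and drugs. The cytosolic enzymes fall into classes (alpha, mu, pi, theta and others) by sequence, and Mgst1 is a membrane-bound enzyme of a separate family. The proximal tubule of the kidney makes, exports and breaks down much glutathione. Many of these genes carry an antioxidant response element, a short sequence bound by the transcription factor Nrf2 together with small Maf proteins.

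The core of that element, TGACNNNGC, was looked for on both strands of RefSeq promoter windows of build GRCr8, from 250 bases before to 50 bases after the start site. Of the 10 genes, 8 had a window, and Gstt1 and Gstt2 were not analysed here. The letters were found in 3 of the 8 genes, Gstp1, Gclm and Gsta3. Counted by window, that was 3 of 9, since Gsta3 had 2 windows, against 12.1% of the 33469 windows of all genes. These 3 promoters are shown because they hold these letters in a pi class, a synthesis and an alpha class gene. Another reason is that Gsta3 lies on the chromosome of the introgressed segment. Capitals mark the match, and each sequence is written 5′ to 3′ along the strand of its gene.
Gstp1, chr1:210769656-210769955, minus strand: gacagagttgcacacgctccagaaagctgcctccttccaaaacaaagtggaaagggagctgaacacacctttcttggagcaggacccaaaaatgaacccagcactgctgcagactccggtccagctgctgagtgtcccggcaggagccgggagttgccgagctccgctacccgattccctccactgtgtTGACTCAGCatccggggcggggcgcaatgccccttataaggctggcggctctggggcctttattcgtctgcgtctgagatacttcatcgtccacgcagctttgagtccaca
Gclm, chr2:213031885-213032184, plus strand: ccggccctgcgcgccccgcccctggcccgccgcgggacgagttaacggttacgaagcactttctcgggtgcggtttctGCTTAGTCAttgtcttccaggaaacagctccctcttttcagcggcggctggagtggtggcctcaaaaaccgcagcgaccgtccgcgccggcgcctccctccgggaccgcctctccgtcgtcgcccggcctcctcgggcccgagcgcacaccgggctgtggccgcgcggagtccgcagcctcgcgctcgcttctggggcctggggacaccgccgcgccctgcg
Gsta3, chr9:31154739-31155038, plus strand: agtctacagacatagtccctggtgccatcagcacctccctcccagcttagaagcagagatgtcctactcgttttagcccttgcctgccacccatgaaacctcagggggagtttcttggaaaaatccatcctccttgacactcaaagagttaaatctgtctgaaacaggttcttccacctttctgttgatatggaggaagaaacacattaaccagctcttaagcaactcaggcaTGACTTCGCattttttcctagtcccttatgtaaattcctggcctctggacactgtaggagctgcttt
The match in Gstp1 read TGACTCAGC on the strand of the gene and lay at -61 to -53 from the start site. In Gclm it lay at -172 to -164 and read TGACTAAGC on the opposite strand, so the printed capitals are its reverse complement. In Gsta3 it read TGACTTCGC at -17 to -9, and a second Gsta3 window of the table did not hold these letters. The strain differences of these 3 genes are given with their classes. A match is a run of letters and was not measured as a binding site here. Sequence outside the windows was not searched.

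Kidney RNA was present as labelled, with signals of 5763.4 to 7455.6 for the thick limb protein Umod and 11012.8 to 15730.3 for the proximal tubule androgen-regulated protein Kap. The arrays had been scaled to a common mean signal near 150.2 (type A) or 150.1 (types B and C), and median signals were 34.8 to 45.9 on type A and 60.4 to 78.5 on types B and C. Sample 1 of each strain differed from the other 2 in RNA measures. The log2 ratio of 3 prime to 5 prime GAPDH control signal, a measure of RNA integrity, was 0.31 and 0.11 in Dahl S and congenic sample 1 and 0.54 to 0.68 in the other 4. Between the strains that ratio differed by -0.12 (exact permutation p = 0.5, two-sided) and that of beta-actin by 0.09 (exact permutation p = 0.7), where 3 against 3 samples cannot give a p under 0.1. Whether the 3 samples of a strain came from different rats is not stated in the labels, and the p-values therefore reflect only how much these samples vary, possibly for technical reasons. Differences below are log2, congenic minus Dahl S, from limma, with n = 3 per strain, and p-values were adjusted by Benjamini-Hochberg over all 15721 tested probe sets.

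No member passed the adjusted threshold of 0.05, and differences within the family were small. Of the 22 probe sets 20 were bright enough to be tested, and they covered all 10 genes. The congenic kidneys had the larger mean in 16 of these and the smaller in 4. By limma 0 passed in either direction, against 0% of all tested probe sets. At an unadjusted p under 0.05 there was 1 member probe set, higher in the congenic samples, against 2.49% of all tested probe sets (1.17% higher and 1.32% lower). That count was 2 with no filter and 2 without Dahl S sample 1. It was 0 when any 1 of the other 5 samples was left out, under quantile or median scaling, and with a robust or untrended variance model. The differences ran from -0.23 (Gstm1) to +0.34 (Gclc), with a median of +0.17, against -0.0035 for all tested probe sets. Above 0 lay 80.0% of the member probe sets and 49.5% of all. Probe sets of a gene share a transcript and all come from the same 6 samples, so these counts are a description and no test was made on them. Leaving out Dahl S sample 1 gave a median of +0.089, and leaving out Dahl S sample 2, or both samples numbered 1, gave +0.11. The number of member probe sets above 0 ranged from 12 (without congenic sample 2) to 16 when each sample was left out in turn.

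**Figure D1:**
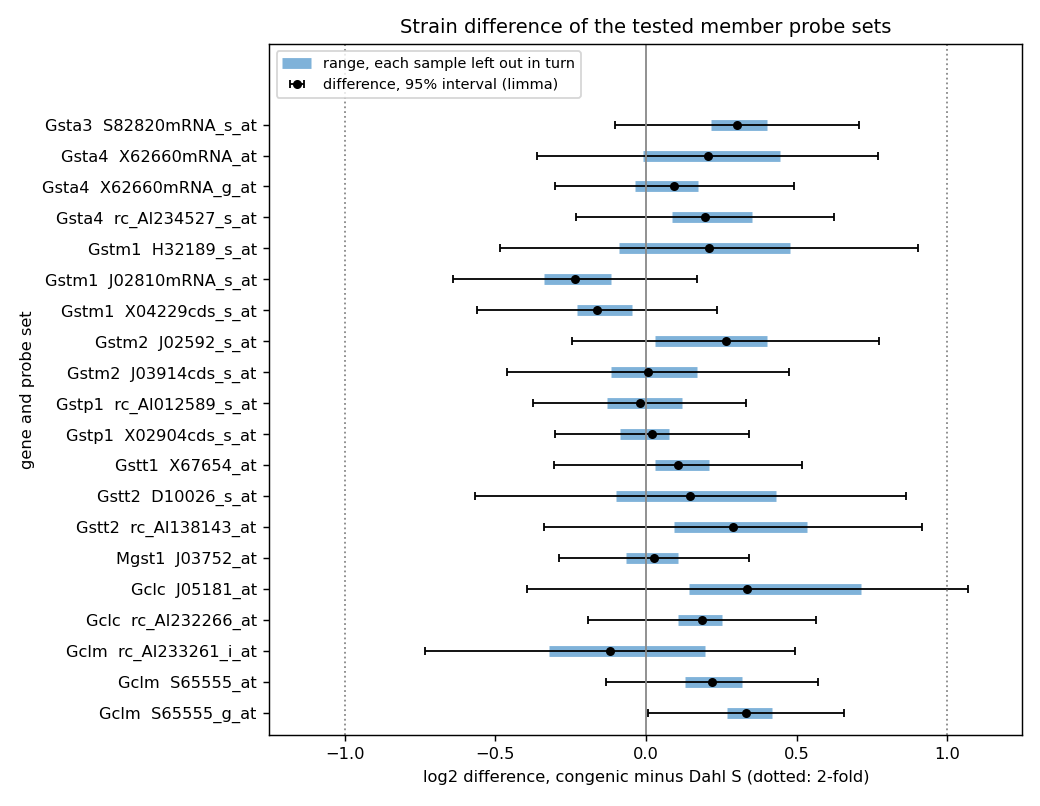
Log2 difference between congenic and Dahl S kidneys (x axis) for each of the 20 tested member probe sets (y axis), with limma's 95% interval as a line and the range over leaving out each of the 6 samples as a blue bar; dotted lines mark a 2-fold difference. All intervals but that of Gclm S65555_g_at include 0, and all but that of Gclc J05181_at lie within 2-fold.

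The intervals give the range of differences that these values leave possible. The 95% intervals reached 0.31 to 0.73 log2 units to either side of the estimate, with a median of 0.41. In 19 of the 20 the interval excluded a 2-fold difference in either direction, each interval taken alone, and the exception was a Gclc probe set with an upper bound of 1.07. The values of the 3 congenic samples lay wholly above those of the 3 Dahl S samples in 3 of the 20 (15.0%), and wholly below in 0. Over all tested probe sets 3.59% lay wholly above and 3.49% wholly below, 7.08% in all. The 3 were probe sets of Gclm, Gclc and Gsta3, and each of these genes also had a probe set whose values overlapped between the strains, for Gsta3 only untested ones.

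**Figure D2:**
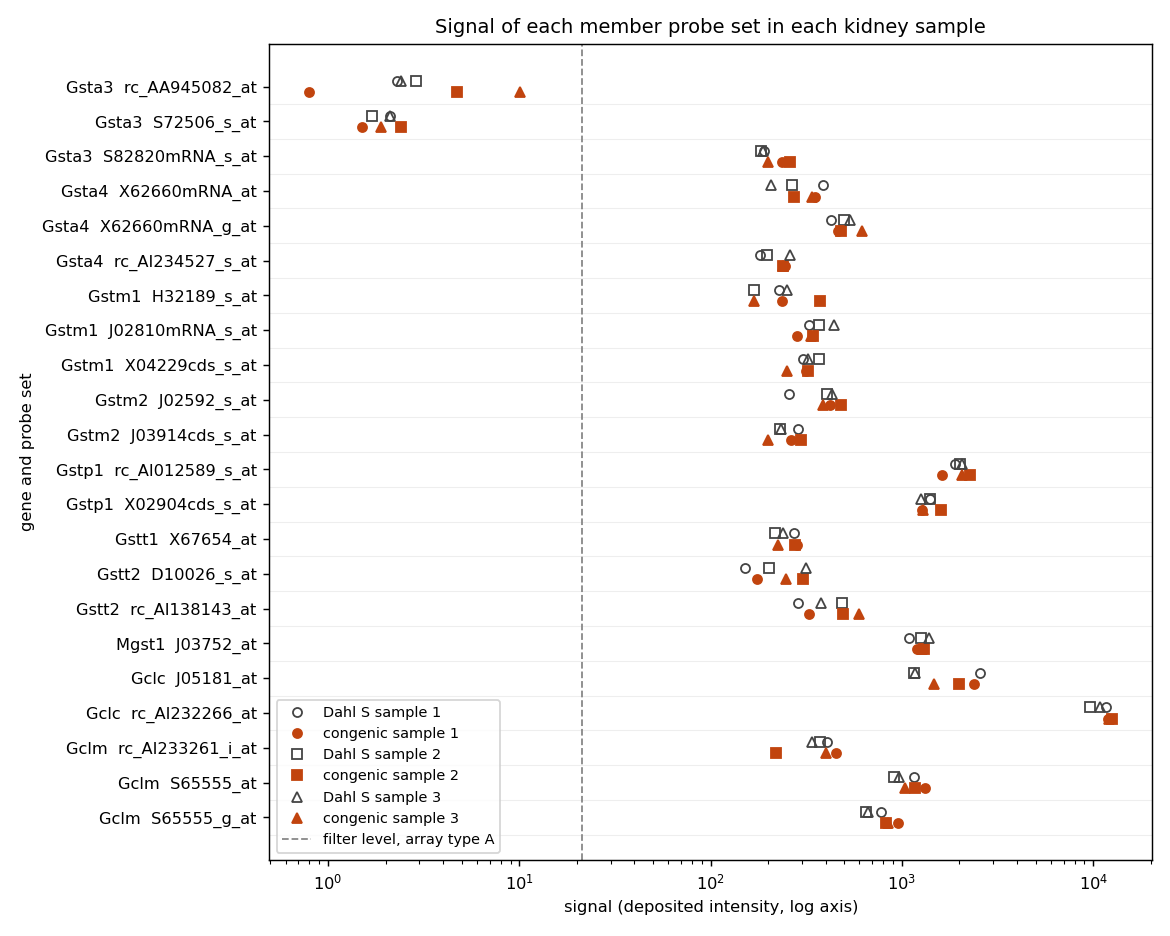
Deposited signal on a log axis (x) of each of the 22 member probe sets (y) in the 3 Dahl S samples (open grey) and the 3 congenic samples (filled orange), with a marker shape for each sample number. The dashed line is the filter level of array type A, 21.2, and 2 Gsta3 probe sets lie below it in all 6 samples. In both strains sample 1 is the highest for Gclc J05181_at and the lowest for Gstt2. For samples 2 and 3, the congenic values lie above the Dahl S values for Gclc J05181_at and Gstt2 rc_AI138143_at. The strains interleave in those samples for Gstt2 D10026_s_at.

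The enzyme of the first step of glutathione synthesis was represented by 5 probe sets, 4 of them higher in the congenic samples, with a median of +0.22 and 0 called. Gclm, the modifier subunit that raises the activity of the ligase, gave the smallest p of the family with its probe set S65555_g_at. Its signal was 781.3, 645.8 and 662.9 in Dahl S samples 1, 2 and 3 and 956.8, 826.2 and 845.7 in congenic samples 1, 2 and 3. All congenic values were above all Dahl S values, and in both strains sample 1 was the highest. The congenic mean was 1.26-fold higher (+0.33, SE 0.14, 95% interval 0.0069 to 0.66) and did not pass (limma adjusted p = 0.9997). With a term for the samples numbered 1 it also did not pass (limma adjusted p = 0.979); over all alternatives its smallest was an adjusted p = 0.923.

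A second Gclm probe set from the same transcript sequence, S65555_at, read 1150.7, 908.2 and 968.3 in Dahl S and 1323.1, 1167.1 and 1034.6 in congenic samples. Here the strains overlapped, since congenic sample 3 lay below Dahl S sample 1. Its difference was +0.22 (SE 0.15). The remaining Gclm probe set, rc_AI233261_i_at, differed by -0.12 (SE 0.27), with 220.4 in congenic sample 2 against 337.4 to 451.3 in the other 5 samples. Without congenic sample 2 its difference was +0.20. With all samples included, 2 of the 3 Gclm probe sets were higher and 1 lower.

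Gclc, the catalytic subunit, was measured by 2 probe sets, both higher in the congenic samples. The probe set rc_AI232266_at on array type C read 11734.3, 9612.8 and 10870.7 in Dahl S and 11905.0, 12585.8 and 12026.7 in congenic samples. The groups did not overlap, but the lowest congenic value was close to the highest Dahl S value. Its difference was +0.19 (SE 0.17, limma adjusted p = 0.9997). The probe set J05181_at read 2551.5, 1157.3 and 1175.2 in Dahl S and 2377.9, 1999.3 and 1468.6 in congenic samples, so the highest of all 6 was Dahl S sample 1. Its difference was +0.34 (SE 0.32), +0.71 without Dahl S sample 1 and +0.56 without both samples numbered 1. Over the alternatives run its smallest limma value was an adjusted p = 0.923.

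Alpha class transferases act on lipid peroxidation products, and Gsta4 is known for its activity towards 4-hydroxynonenal. The 4 tested alpha class probe sets were all higher in the congenic samples, by +0.09 to +0.30, and 0 were called. Gsta3 is encoded on chromosome 9 in GRCr8, next to Gsta1 in the order of protein-coding genes. No label used here states where the introgressed segment begins or ends, so whether it includes Gsta3 was not determined here. The probe set S82820mRNA_s_at of Gsta3 read 189.9, 183.2 and 187.4 in Dahl S and 235.4, 259.0 and 200.3 in congenic samples. The Dahl S values were nearly equal, and all congenic values were above them. The difference was +0.30 (SE 0.18, 95% interval -0.10 to 0.71, limma adjusted p = 0.9997).

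The other 2 Gsta3 probe sets were not tested, because they were below the filter level of 21.2 in all 6 samples. S72506_s_at read 1.5 to 2.4 and rc_AA945082_at read 0.8 to 10.1, so neither was shown to be above background, and no fold is given. The strain difference of Gsta3 thus rests on 1 of its 3 probe sets. Of the 22 member probe sets 11 have names ending in _s_at, the manufacturer's mark for probes that can match more than 1 transcript, and the Gsta3 probe set that was tested is among them. Its signal may include close relatives or come from another alpha class gene that the annotation places under Gsta3, which was not tested. The value is therefore that of a probe set annotated as Gsta3.

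Gsta1, the chromosome 9 neighbour, is not among the 10 genes but is a close relative, and its 3 probe sets were all of the family type (_f_at). X78848cds_f_at read 1792.2, 1922.2 and 1751.5 in Dahl S and 2662.1, 2226.5 and 2413.5 in congenic samples, without overlap. Its difference was +0.42 (SE 0.13) and did not pass (limma adjusted p = 0.9997). The other 2 Gsta1 probe sets differed by +0.08 (SE 0.15) and +0.09 (SE 0.16), with overlapping values. This Gsta1 probe set was picked out after its values were seen.

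Gsta4, encoded on chromosome 8, had 3 tested probe sets and none without overlap. X62660mRNA_at read 388.0, 266.4 and 206.5 in Dahl S and 349.3, 274.3 and 340.9 in congenic samples, a difference of +0.20 (SE 0.25). The Dahl S samples spread more widely than the congenic ones, and without Dahl S sample 3 the difference was -0.0083. A second probe set of the same transcript, X62660mRNA_g_at, differed by +0.09 (SE 0.17), and rc_AI234527_s_at by +0.20 (SE 0.19).

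Mu class transferases metabolise epoxides and other electrophiles and form dimers within the class. Of their 5 tested probe sets 3 were higher and 2 lower in the congenic samples, from -0.23 to +0.26, and 0 were called. The lower ones were both of Gstm1. J02810mRNA_s_at read 326.7, 367.8 and 443.6 in Dahl S and 282.8, 343.9 and 336.5 in congenic samples, with overlap, and the Dahl S mean was 1.18-fold higher (difference -0.23, SE 0.18). X04229cds_s_at differed by -0.16 (SE 0.17) and H32189_s_at by +0.21 (SE 0.30). The H32189_s_at value rested on congenic sample 2, at 372.3 against 168.7 to 250.3 in the other samples, and was -0.089 without it.

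Gstm2, on chromosome 2 as Gstm1 is, had 2 probe sets. J02592_s_at read 256.9, 406.9 and 429.4 in Dahl S and 419.0, 479.4 and 387.6 in congenic samples, a difference of +0.26 (SE 0.22). Dahl S sample 1 was the low value, and without it the difference was +0.03. J03914cds_s_at differed by +0.0059 (SE 0.20). All 5 mu class probe sets carry the _s_at mark, so signals of Gstm1 and Gstm2 may not be fully separate, which was not tested.

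Gstp1, the pi class enzyme whose promoter match is shown above, gave small differences with both probe sets. The probe set rc_AI012589_s_at read 1902.2, 2016.6 and 2051.8 in Dahl S and 1611.0, 2283.0 and 2050.6 in congenic samples. The congenic samples lay on both sides of the Dahl S range, and the difference was -0.02 (SE 0.15, 95% interval -0.37 to 0.33). X02904cds_s_at differed by +0.02 (SE 0.14, 95% interval -0.30 to 0.34). Mgst1, the microsomal enzyme, also differed little. J03752_at read 1088.4, 1261.3 and 1382.6 in Dahl S and 1196.2, 1312.2 and 1276.1 in congenic samples, a difference of +0.03 (SE 0.14, 95% interval -0.29 to 0.34).

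Theta class transferases act on small halogenated compounds and some hydroperoxides. Their 3 probe sets were all higher in the congenic samples, by +0.11 to +0.29, with 0 called and 0 without overlap. Gstt1 read 271.9, 218.1 and 238.1 in Dahl S and 282.1, 276.6 and 225.5 in congenic samples (X67654_at, +0.11, SE 0.18). Gstt2 read 284.9, 487.6 and 378.3 in Dahl S and 325.3, 493.3 and 597.5 in congenic samples with rc_AI138143_at (+0.29, SE 0.27). With D10026_s_at it read 151.8, 201.3 and 317.1 in Dahl S and 174.6, 302.4 and 249.1 in congenic samples (+0.15, SE 0.31). Sample 1 was the lowest of its strain in both Gstt2 probe sets and in both strains.

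The sample number went with differences within both strains. In 12 of the 20 tested member probe sets (60%) sample 1 lay outside the range of samples 2 and 3 in the same direction in both strains, 6 above and 6 below. The same held for 39.3% of all tested probe sets, and no test was made on the difference. Gstt2 was lower in sample 1 than in the mean of samples 2 and 3, by -0.73 (Dahl S) and -0.65 (congenic) with D10026_s_at and by -0.59 and -0.74 with rc_AI138143_at. Gclc J05181_at was higher in sample 1, by 1.13 in Dahl S and 0.47 in congenic samples. The 3 Gclm probe sets were also higher in both samples numbered 1, by 0.19 to 0.61. The labels name no batch for these samples. The GAPDH control ratio given above was lowest in the samples numbered 1, and its part in these values was not tested.

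**Figure D3:**
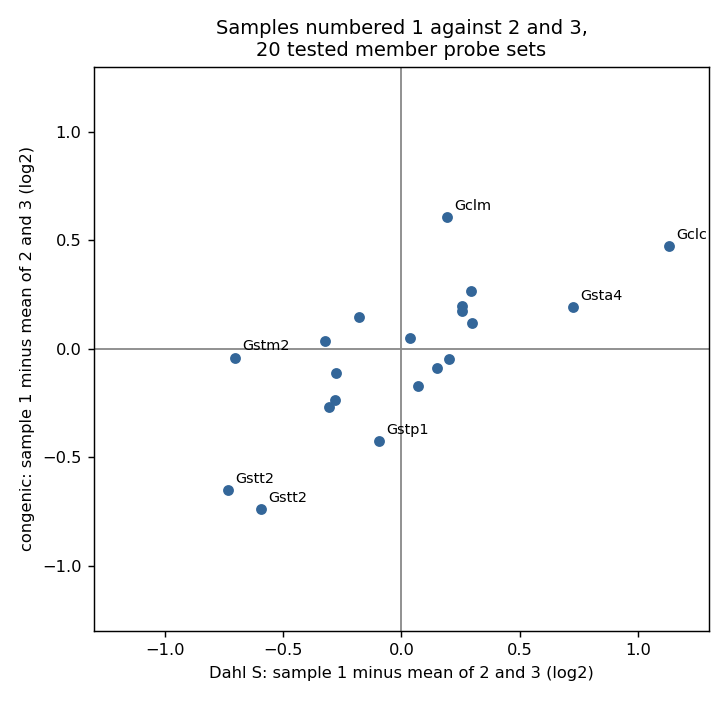
Log2 signal of sample 1 minus the mean of samples 2 and 3 in Dahl S (x axis) and congenic kidneys (y axis), 1 point for each of the 20 tested member probe sets, with names at the points farther out. Points in the upper right and lower left differ the same way in both strains: Gclc J05181_at lies at 1.13 and 0.47, and the 2 Gstt2 points lie between -0.59 and -0.74 on both axes.

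Genes around the family were described from lists, with 1 probe set per gene, the brightest. Represented this way, 8 of the 10 member genes were higher, with a median of +0.15 against -0.0065 for all 8168 genes tested, of which 48.9% were higher. Other glutathione transferases had 8 of 12 tested genes higher and 4 lower (median +0.07), with 0 called. Those with the smallest p were Gstm7, a mu class enzyme (-0.36, SE 0.24), and Mgst2, a microsomal enzyme of leukotriene and glutathione metabolism (+0.29, SE 0.25), both overlapping between the strains. Gstz1, the maleylacetoacetate isomerase, had a brighter probe set at +0.09 (SE 0.17) and a dimmer one at +0.67 (SE 0.22, limma adjusted p = 0.9997). The dimmer one was picked out after its values were seen.

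Enzymes that supply, recycle and break down glutathione had 21 of 33 tested genes higher and 12 lower (median +0.06), with 0 called. Cth, the cystathionine lyase that makes cysteine for glutathione, had the smallest p. It read 684.2, 572.6 and 583.5 in Dahl S and 729.7, 835.6 and 849.3 in congenic samples, without overlap (+0.39, SE 0.14, limma adjusted p = 0.9997). Cbs, the enzyme before Cth in the same pathway, was named after its values were seen, and read 406.6, 366.8 and 366.5 against 473.6, 439.8 and 495.5 (+0.31, SE 0.14, adjusted p = 0.9997). Glrx, the glutaredoxin that removes glutathione from proteins, was lower, at 124.8, 125.8 and 113.7 in Dahl S and 96.8, 80.2 and 83.4 in congenic samples, without overlap (-0.49, SE 0.22). The other genes of this list without overlap were also named after their values were seen. Gpx8 (+0.31, SE 0.23) and Hagh (+0.15, SE 0.13) were higher, and Gpx4 was lower (-0.15, SE 0.12). Gss, which performs the second step of synthesis, differed by +0.06 (SE 0.13), and Gsr, which reduces oxidised glutathione, by -0.16 (SE 0.19).

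The list of the Nrf2 pathway and its known targets divided nearly evenly. Of 28 tested genes 13 were higher and 15 lower (median -0.03), with 0 called. The 2 with the smallest p pointed apart: Ephx1, the microsomal epoxide hydrolase, at +0.42 (SE 0.21), and Hmox1, heme oxygenase 1, at -0.77 (SE 0.49), where congenic sample 2 read 24.4 against 74.3 to 105.1 in the other samples. The quinone reductase Nqo1, a much used marker of the pathway, ranged from 70.6 to 313.4 among the congenic samples alone and differed by +0.24 (SE 0.53). Nfe2l2, which encodes Nrf2, differed by -0.11 (SE 0.32) and its inhibitor Keap1 by +0.11 (SE 0.27).

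**Figure D4:**
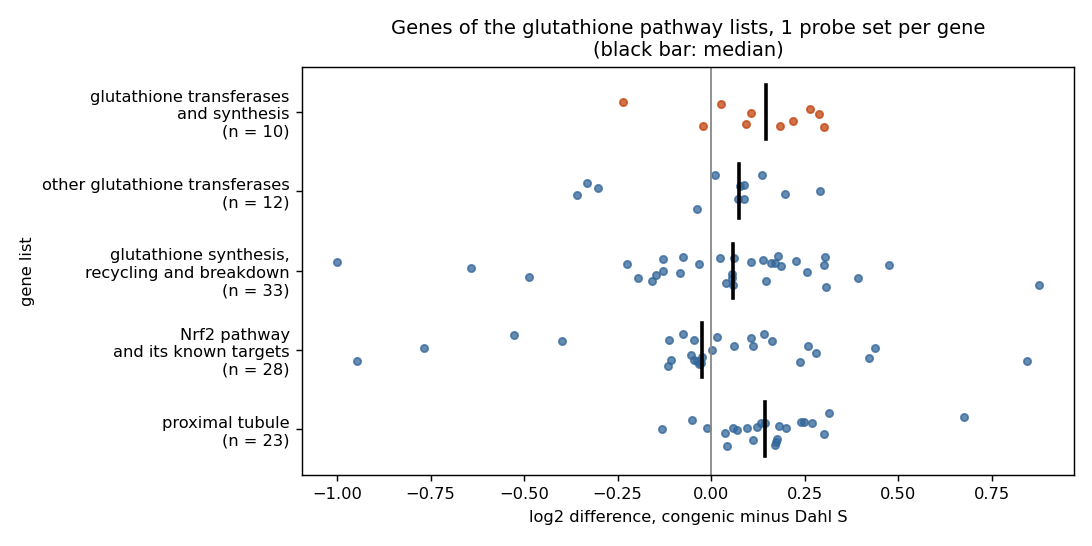
Log2 difference between congenic and Dahl S kidneys (x axis) of each tested gene in 5 lists (y axis), 1 probe set per gene, with a black bar at the median of the list; vertical scatter only separates points. Medians are +0.15 for the 10 family genes, +0.07, +0.06 and -0.03 for the other transferases, the glutathione metabolism genes and the Nrf2 list, and +0.14 for proximal tubule markers.

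Markers of the proximal tubule, the segment known for high glutathione turnover, were higher as well. Of 23 tested markers 20 had the larger mean in the congenic samples (median +0.14, 0 called). Markers of the thick ascending limb and the distal convoluted tubule were similarly one-sided, with 6 of 7 tested genes higher (median +0.11, 0 called). Collecting duct markers were more evenly divided, with 7 of 12 tested genes higher and 5 lower (median +0.03, 0 called). The summed signal of the proximal tubule markers was 84670.7 to 90220.7 in the Dahl S samples and 88535.9 to 105948.6 in the congenic samples, so the ranges overlapped. The proximal tubule list shares Ggt1 and Slc3a1 with the glutathione metabolism list and no gene with the 10. With 1 probe set per gene, the members' median relative to the mean of the 6 samples was -0.11, 0.0029 and -0.0076 in Dahl S samples 1, 2 and 3 and -0.00086, 0.14 and 0.012 in the congenic samples, so the strains overlapped. Over all 20 tested member probe sets it was -0.02, -0.13 and -0.07 in Dahl S and 0.07, 0.14 and 0.01 in congenic samples, without overlap, so the order of the samples differed with the probe sets used. In whole kidney, a larger share of cells of a type and more RNA per cell cannot be told apart, and the part of the tubule markers in the members' values was not tested. Glomerulus markers were higher in 3 of 4 tested genes (median +0.20) and endothelium markers in 6 of 9 (median +0.08), with 0 called in either. Leukocyte markers were lower in 11 of 13 tested genes (median -0.38) and smooth muscle and stroma markers in 12 of 13 (median -0.35), with 0 called in either. Summed leukocyte markers were 5247.0 to 6679.5 in Dahl S and 4677.9 to 5114.4 in congenic samples, without overlap. Summed stroma markers were 7000.7 to 8800.8 in Dahl S and 5828.0 to 6683.1 in congenic samples, also without overlap. Taken as medians relative to the mean of the 6 samples, leukocyte markers did not overlap but stroma markers did. The stroma medians were 0.10, 0.33 and 0.18 in Dahl S and -0.06, -0.24 and 0.15 in congenic samples. Blood cell markers summed to 52231.3 in Dahl S sample 3 and to 10112.7 to 19132.2 in the other 5 samples. The part of these cells in the members' values was not tested. Of the adrenal markers on the arrays 5 of 9 were below the filter level, the steroid enzymes Cyp11a1 and Cyp17a1 among them, and of the fat markers 4 of 9, Adipoq and Plin1 among them. The other 4 adrenal and 5 fat markers were above it and were tested, with 0 called. Of these, Fdx1 read 167.3 to 231.0 and Lep 752.6 to 1098.0 over the 6 samples, with overlap between the strains. Which tissue gave these signals was not tested.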

How the data were processed

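Total kidney RNA of 6 rat samples was measured on 3 array types. The authors deposited a linear intensity for each probe set. The values show that each array had been scaled to a common mean after trimming 2% at each end, and the summarising software was not given in the sources used here. Groups came from the sample titles. The members and gene lists were chosen with earlier results of these data known. Control probe sets were left out, values under the 10th percentile of a type (3.1 on type A) were raised to it, and log2 was taken. Probe sets with a mean log2 under the 40th percentile of their type (21.2 on A, 37.7 on C) were not tested. Strain differences were fitted per array type in R 4.3.3 by limma 3.58.1 (lmFit, and eBayes with trend), with Benjamini-Hochberg adjustment over all types. Genes named outside the 10 were the 2 with the smallest p of each of the 3 pathway lists, close relatives of the 10, or were said to be chosen after their values were seen. Umod, Kap, Gss, Gsr, Nqo1, Nfe2l2 and Keap1 were added for their known roles, and Cyp11a1, Cyp17a1, Fdx1, Adipoq, Plin1 and Lep as examples of marker levels, with values known. The GEO platform annotation named the genes, and all 22 member probe sets matched GRCr8 by gene ID. On simulated data of 15721 probe sets the fit called 11 of 66, 42 of 63 and 52 of 64 probe sets changed by 1, 2 and 3 log2 units, with 6 false calls. Figures used matplotlib 3.10.9. The number of arrays limits the precision.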

Additional observations from a re-analysis of the deposited data

How the results depend on the processing

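In the 19 alternatives run, limma called 0 of all tested probe sets and 0 member probe sets, with 259 (a stricter filter, which tests fewer) to 819 of all tested probe sets at an unadjusted p under 0.05. The alternatives were the floor, the filter, quantile or median scaling, the variance model, the adjustment, its threshold, the sample number as a term, and samples left out. With the sample number as a replicate block 0 probe sets passed (819 at an unadjusted p under 0.05, against 391 without it) and 0 members. Deviations of same-numbered samples correlated by 0.45, 0.077 and 0.18 for numbers 1, 2 and 3. For numbers 1 and 3 the same-numbered sample gave the highest correlation. Sample numbers were not treated as pairs in the main fit, since sample 2 of Dahl S correlated better with congenic sample 3 (0.15). The main fit has no term for sample number, so variation shared by same-numbered samples counts in its intervals. The members' median of +0.17 ranged from +0.089 to +0.16 with each sample left out, and was +0.11 without both samples numbered 1. Some small differences changed sign, none of them called. Gstp1 rc_AI012589_s_at was +0.0029 under median scaling, and without both samples numbered 1 it was +0.089 and Mgst1 was -0.029. With each sample left out, the ranges that crossed 0 were -0.10 to 0.43 (Gstt2 D10026_s_at), -0.067 to 0.11 (Mgst1), -0.12 to 0.17 (Gstm2 J03914cds_s_at), -0.0083 to 0.45 and -0.037 to 0.17 (Gsta4 X62660mRNA_at and X62660mRNA_g_at), -0.13 to 0.12 and -0.086 to 0.077 (Gstp1 rc_AI012589_s_at and X02904cds_s_at), -0.089 to 0.48 (Gstm1 H32189_s_at) and -0.32 to 0.20 (Gclm rc_AI233261_i_at). The cause was not tested. Averaging all probe sets per gene gave medians of +0.08 (other transferases), +0.05 (glutathione metabolism) and -0.03 (Nrf2 list). With 3 samples per strain the adjusted test misses many real differences: on simulated data it called 11 of 66 changes of 1 log2 unit and 42 of 63 of 2 units. Of the members, 2 of 22 probe sets were too dim to test.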
